A study of Mus musculus with 9 samples.

Results

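The genes described here are 10 members of the Galnt family, Galnt1, Galnt2, Galnt3, Galnt4, Galnt6, Galnt7, Galnt10, Galnt11, Galnt12 and Galntl5, chosen by symbol from the 55414 genes listed in the deposited table. Galnt10 was put at the centre of the set because of how its level differed between these libraries, so the differences reported for it and for the other members are a description, no p-value is printed for a member, and a member counted as past the threshold supports nothing beyond its own values. All 10 members had the 10 counts over the 9 libraries needed to enter the fit, as did 8 of the 9 other genes of the family (Galnt5 had 7 counts and was not tested).

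Round spermatids (RS), the haploid cells that follow meiosis, came from wild type mouse testis and were cultured for 24 h, and their polyA-selected RNA was sequenced in 3 libraries per group. According to the methods of the study, the cells were sorted by size and fluorescence from Stra8-Tom males, in which a Cre recombinase driven by Stra8 switches on tdTomato in the germ line, so that all groups carry the Cre and the reporter. Libraries 1 to 3 received vehicle (0.15% DMSO), libraries 4 to 6 received 24 mM oxamate, an inhibitor of lactate dehydrogenase, and libraries 7 to 9 received 24 mM oxamate with 0.3 mM octyl-L-2HG, with the same share of DMSO in every group. The octyl ester carries L-2-hydroxyglutarate (L-2HG) across the membrane. There was no group with octyl-L-2HG alone. The comparisons therefore ask how the genes stand when lactate dehydrogenase is inhibited, and how they stand when L-2HG is supplied on top of the inhibitor.

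Polypeptide N-acetylgalactosaminyltransferases (GalNAc transferases) sit in the Golgi and attach the sugar N-acetylgalactosamine from UDP-GalNAc to serine or threonine, the step that starts mucin-type O-glycans. Some members start on bare protein (Galnt1 and Galnt2 are the broad housekeeping examples), while others (Galnt4, Galnt7, Galnt10 and Galnt12) prefer, or also take, substrates that already carry GalNAc, which they recognise with their catalytic or lectin domains. In the male germ line Galnt3 is known for its part in the formation of the acrosome, and Galntl5 is a testis-specific relative that lacks the lectin domain.

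The promoters of 4 members are shown here, those of the pair that passed the threshold with oxamate (Galnt10 and Galnt11) and those of the pair with the highest levels (Galntl5 and Galnt3). RefSeq promoter windows of the build GRCm38.p6, 250 bases before and 50 after a transcript start, were used for 6 of the 10 members. A member without a window here, such as Galnt1, was not shown to lack one in RefSeq. Capitals mark the letters TGACG, the core of the cyclic AMP response element (CRE) that CREM binds in spermatids, and ACGTG, the core of the hypoxia response element (HRE), each on either strand, so that CGTCA and CACGT are marked as well. The Galnt10 window lies at chr11:57645192-57645491 (+), the Galnt11 window at chr5:25222622-25222921 (+), the Galntl5 window at chr5:25181230-25181529 (+) and the Galnt3 window at chr2:66124744-66125043 (-), each printed 5′ to 3′ in the direction of the gene.
Galnt10: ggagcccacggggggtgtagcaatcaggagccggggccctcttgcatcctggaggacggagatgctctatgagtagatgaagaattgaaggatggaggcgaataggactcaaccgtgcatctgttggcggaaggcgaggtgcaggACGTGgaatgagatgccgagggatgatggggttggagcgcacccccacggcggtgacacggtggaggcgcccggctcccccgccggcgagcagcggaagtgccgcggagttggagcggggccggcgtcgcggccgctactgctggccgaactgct
Galnt11: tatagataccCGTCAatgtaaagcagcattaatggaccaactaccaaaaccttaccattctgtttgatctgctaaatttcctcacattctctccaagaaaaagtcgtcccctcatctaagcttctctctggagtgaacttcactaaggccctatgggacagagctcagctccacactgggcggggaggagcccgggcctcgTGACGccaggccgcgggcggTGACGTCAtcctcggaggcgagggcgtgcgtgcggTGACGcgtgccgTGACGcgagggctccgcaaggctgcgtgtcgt
Galntl5: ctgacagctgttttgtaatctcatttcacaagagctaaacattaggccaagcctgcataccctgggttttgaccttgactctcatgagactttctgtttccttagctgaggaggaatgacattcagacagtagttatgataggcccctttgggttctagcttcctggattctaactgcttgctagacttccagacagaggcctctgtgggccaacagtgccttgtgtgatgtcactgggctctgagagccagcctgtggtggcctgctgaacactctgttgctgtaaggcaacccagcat
Galnt3: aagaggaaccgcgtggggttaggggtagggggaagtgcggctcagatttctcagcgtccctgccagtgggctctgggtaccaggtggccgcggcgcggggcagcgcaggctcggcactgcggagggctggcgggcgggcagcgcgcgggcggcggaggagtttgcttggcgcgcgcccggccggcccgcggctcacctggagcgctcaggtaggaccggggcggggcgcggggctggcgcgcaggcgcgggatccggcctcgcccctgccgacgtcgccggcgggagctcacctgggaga

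The Galnt10 window holds 28 CpG dinucleotides and 1 match to ACGTG, which begins 105 bases before the start. Letters ACGTG occur in 19.6% of all 32851 promoter windows. The Galnt11 window holds 23 CpG dinucleotides and 6 matches to TGACG, letters that 20.8% of windows hold, with 2 matches to GGGCGG (the GC box, in 35.7% of windows). A pair of these matches overlap in the palindrome TGACGTCA, the full CRE, 29 bases before the start, and 1.79% of windows hold that palindrome. A second RefSeq window of Galnt11, further downstream, holds 1 match to each core. The Galntl5 window has 0 CpG dinucleotides and none of the 6 motifs searched on both strands, which also included TATAAA (13.6%) and CCAAT (37.4%). The Galnt3 window holds 41 CpG dinucleotides and 3 matches to GGGCGG, and the Galnt7 window, not printed, holds 25 and 2. A Galnt6 window, also not printed, holds 31 CpG dinucleotides, 1 match to TGACG, 1 to ACGTG and 3 to GGGCGG, and Galnt6 was called in no comparison. The median window of all promoters had 7 CpG dinucleotides, with quartiles of 3 and 20. These are matches of letters only, and no binding was measured.

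Between members, levels were compared as normalized counts (the deposited counts divided by the size factor of the library) per kilobase of transcript. In vehicle cells Galntl5 stood highest at 8025 ± 405 normalized counts per kilobase (SD, n = 3), followed by Galnt3 at 4157 ± 202, Galnt10 at 302 ± 25.9 and Galnt7 at 223 ± 18.0. The libraries of each of these 4 genes lay apart from those of the next. Of 16681 genes with a length, Galntl5 was at the percentile 98.0 by level per kilobase over all libraries, Galnt3 at 95.1, Galnt10 at 76.8 and Galnt7 at 65.1.

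The other 6 members were at a low level in vehicle cells. Galnt2 (8.67 ± 2.00 normalized counts per kilobase) and Galnt4 (8.64 ± 0.77) did not differ beyond their spread, nor did Galnt11 (3.11 ± 0.13) and Galnt6 (3.07 ± 0.46), nor Galnt1 (1.36 ± 0.86) and Galnt12 (0.656 ± 0.80). With coding length in place of transcript length, Galnt2 and Galnt4 changed places, as did Galnt6 and Galnt11, and the other 6 kept theirs. Galnt3 and Galntl5 together made up 91.5% ± 0.21 of the summed per-kilobase level of the 19 family genes in vehicle cells, 89.9% ± 1.4 with oxamate and 88.9% ± 0.29 with both compounds. The share of Galnt10 was 2.27% ± 0.28, 4.12% ± 1.3 and 5.38% ± 0.16 in the same order.

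**Figure D1:**
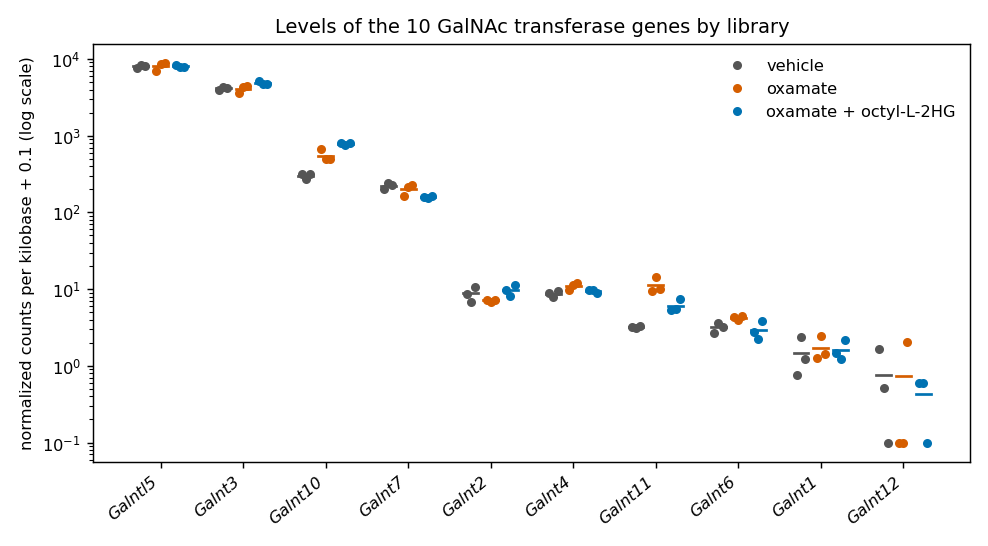
Normalized counts per kilobase of transcript, with 0.1 added so that libraries at 0 can be drawn, on a log axis for the 10 members (points, libraries; lines, group means; n = 3 per group). Galntl5 and Galnt3 stand far above the other members in every library, and the Galnt10 points of the 3 groups form 3 separate steps.

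A gene was called when the p-value of edgeR's quasi-likelihood test, adjusted by the Benjamini-Hochberg method over the 25128 genes tested, was under 0.05. With oxamate against vehicle, 2 of the 10 members were called higher, Galnt10 and Galnt11, and 0 lower, where 5.19% of all genes tested were called (3.97% higher and 1.22% lower). At an unadjusted p-value under 0.05 the members counted 2 and 0, and with DESeq2 2 and 0. With both compounds against oxamate, 2 members were called higher (Galnt10 and Galnt3) and 2 lower (Galnt7 and Galnt11), where 11.2% of all genes were called (3.18% higher and 8.06% lower). Against vehicle, the combination had 2 members called higher (Galnt10 and Galnt3) and 1 lower (Galnt7), where 18.0% of all genes were called (7.48% higher and 10.6% lower). When libraries were scaled by total counts alone, 421 genes were higher and 2516 lower with both compounds against oxamate, beside 798 and 2025 with TMM, and 1231 and 3367 against vehicle, beside 1879 and 2655. DESeq2 gave 1258 and 1627, and 2161 and 2017. Of the 4 members whose normalized counts averaged 100 or more (Galnt3, Galnt7, Galnt10 and Galntl5), 1, 3 and 3 were called in the 3 comparisons, where 9.67%, 19.8% and 29.5% of the genes at that level were. Asked whether any group differed, 4 of the 10 members were called, beside 19.8% of all genes tested. The comparisons share libraries, so their values are set side by side and are not independent. The median log2 fold change of the members was 0.149, -0.164 and 0.118 in the 3 comparisons, beside -0.0113, -0.0384 and -0.0452 over all genes tested. In RNA of a whole culture, fewer cells with a transcript and less of the transcript per cell cannot be told apart.

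Galnt10 encodes a transferase that acts mainly on substrates already glycosylated by other members. Its normalized counts were 1492, 1281 and 1494 in the vehicle libraries 1 to 3, 3138, 2312 and 2319 in the oxamate libraries 4 to 6, and 3764, 3578 and 3732 in the libraries 7 to 9 with both compounds. Each group lay wholly above the one before it, and oxamate library 4 stood well above the other two of its group. The means were 1422 ± 122, 2589 ± 475 and 3692 ± 99.6 normalized counts (SD, n = 3). The log2 fold change was 0.87 (SE 0.098) with oxamate against vehicle, 0.48 (SE 0.096) with both compounds against oxamate and 1.35 (SE 0.098) with both against vehicle. Without oxamate library 4 the first of these was 0.70 and the second 0.65.

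For Galnt10 the libraries that received octyl-L-2HG thus stood further from vehicle than the oxamate libraries did. Among the 10715 genes whose normalized counts averaged 100 or more, Galnt10 held place 25 from the highest by log2 fold change with oxamate against vehicle, place 38 with both compounds against oxamate and place 2 with both against vehicle. It was called higher in all 3 comparisons under each of the 16 alternatives tried.

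**Figure D2:**
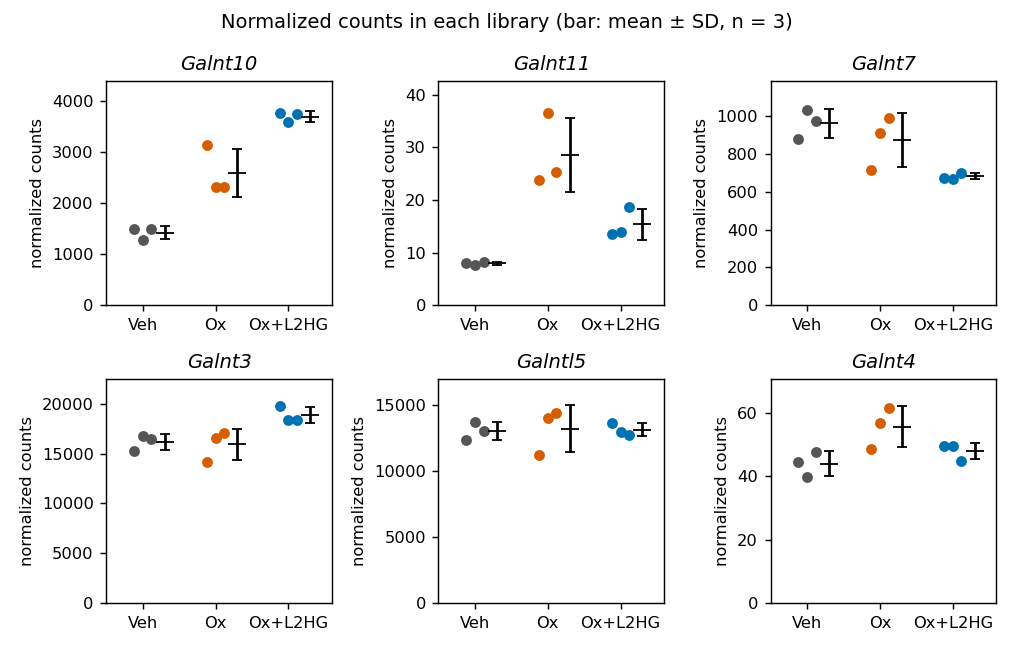
Normalized counts of 6 members in each library (points) with mean and SD beside them (n = 3 per group, axes from 0). Galnt10 climbs from 1422 to 2589 to 3692, Galnt11 is highest with oxamate, Galnt7 is lowest with both compounds, and Galntl5 overlaps among the groups.

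Galnt11, known for glycosylating Notch1 and proteins of the LDL receptor family, was close to the detection limit in vehicle cells. Its raw counts were 9, 8 and 9 with vehicle, 25, 38 and 23 with oxamate, and 12, 12 and 20 with both compounds. As normalized counts these were 8.0, 7.58 and 8.24, then 23.8, 36.6 and 25.2, then 13.5, 13.8 and 18.7. No group overlapped another, with the oxamate libraries highest and the libraries with both compounds between. The means were 7.94 ± 0.33, 28.5 ± 7.0 and 15.3 ± 2.9 (SD, n = 3). The log2 fold change was 1.84 (SE 0.29) with oxamate against vehicle, and the gene was called under all 16 alternatives. Adding octyl-L-2HG gave -0.90 (SE 0.26), called lower in 10 of 16 alternatives. That call was lost without oxamate library 5 (-0.68), without library 7 (-0.81) or library 8 (-0.83) with both compounds, with DESeq2 (-0.89), with only these groups fitted (-0.88), and at an adjusted p under 0.01. The log2 fold change between the combination and vehicle was 0.94 (SE 0.34), not called (4 of 16 alternatives called it).

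Galnt7 encodes another transferase that needs a GalNAc already on its substrate. It measured 880, 1035 and 974 normalized counts with vehicle, 714, 913 and 992 with oxamate, and 676, 670 and 701 with both compounds. Vehicle and oxamate libraries overlapped, and the 3 libraries with both compounds lay under all 6 others. The means were 963 ± 77.8, 873 ± 143 and 682 ± 16.6 (SD, n = 3). The log2 fold change was -0.14 (SE 0.096) with oxamate against vehicle, not called. It was -0.38 (SE 0.099) with both compounds against oxamate and -0.52 (SE 0.098) with both against vehicle, called lower each time. The call against vehicle held under all 16 alternatives. The call against oxamate held under 11 and was lost without oxamate library 5 (-0.34) or 6 (-0.28), without library 7 (-0.37) or 8 (-0.36) with both compounds, and at an adjusted p under 0.01. Galnt7 and Galnt10 are each other's nearest member by coding sequence, with 61.7% of aligned bases identical, and with both compounds Galnt10 was called higher and Galnt7 lower than with vehicle.

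Galnt3, the acrosome-related member, measured 15263, 16751 and 16436 normalized counts with vehicle, 14145, 16601 and 17061 with oxamate, and 19827, 18427 and 18402 with both compounds. The libraries with both compounds lay above all others, whereas vehicle and oxamate overlapped. The means were 16150 ± 784, 15936 ± 1568 and 18885 ± 816 (SD, n = 3). The log2 fold change was -0.016 (SE 0.070) with oxamate against vehicle, 0.22 (SE 0.070) with both compounds against oxamate and 0.20 (SE 0.070) with both against vehicle. The last pair were called higher, each in 7 of 16 alternatives, and both calls were lost when libraries were scaled by total counts, at an adjusted p under 0.01, and without vehicle library 2, oxamate library 5, or library 7, 8 or 9. The first was also lost with only these groups fitted and without oxamate library 4, and the second without vehicle library 1 or 3. With a library left out the first ranged from 0.15 to 0.27 and the second from 0.17 to 0.24. Galnt6, the nearest relative of Galnt3 by coding sequence (66.8% of aligned bases identical), was scarce, with 9.77, 13.3 and 11.9 normalized counts with vehicle, 16.2, 14.4 and 16.4 with oxamate, and 10.1, 8.07 and 14 with both compounds. Oxamate libraries of Galnt6 lay above all others, and its log2 fold changes of 0.43 (SE 0.30), -0.54 (SE 0.31) and -0.11 (SE 0.33) were not called.

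Galntl5, the testis-specific relative, measured 12403, 13719 and 13047 normalized counts with vehicle, 11211, 14085 and 14441 with oxamate, and 13700, 12953 and 12770 with both compounds. All 3 groups overlapped. The means were 13057 ± 658, 13245 ± 1771 and 13141 ± 493 (SD, n = 3), and the log2 fold changes were 0.02, -0.04 and -0.01 with an SE of 0.078 each, none called under any alternative. In coding sequence Galntl5 is closest to Galnt11 among the members (67.2% of aligned bases identical), its neighbour on chromosome 5, yet the level of Galnt11 in vehicle cells was 3.11 normalized counts per kilobase against 8025.

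Galnt4 and Galnt12, close to each other in coding sequence (64.6% identical) and active on glycopeptides, were both low. Galnt4, whose coding region lies in 1 exon, measured 44.4, 39.8 and 47.6 normalized counts with vehicle, 48.6, 56.8 and 61.4 with oxamate, and 49.4, 49.6 and 44.9 with both compounds. The oxamate libraries lay above the vehicle libraries, and those with both compounds overlapped each. Its log2 fold changes of 0.34 (SE 0.17), -0.24 (SE 0.17) and 0.10 (SE 0.17) were not called. Galnt4 shares 420 exon bases with Poc1b on the same strand, a gene at 5600 ± 106, 5923 ± 12.2 and 7110 ± 150 normalized counts in the vehicle, oxamate and combined groups, so reads in the shared stretch may have been left out or assigned to either gene. Galnt12 had 11 counts in all 9 libraries together (4, 1 and 0 with vehicle, 0, 0 and 4 with oxamate, 1, 1 and 0 with both compounds), too few for a fold change.

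The broadly acting Galnt1 and Galnt2 also had low counts in RS. Galnt1 had raw counts of 3, 10 and 5 with vehicle, 5, 10 and 5 with oxamate, and 5, 4 and 9 with both compounds, which overlap throughout. Galnt2 measured 35.5, 27.5 and 44.0 normalized counts with vehicle, 29.5, 27.9 and 29.6 with oxamate, and 39.3, 33.4 and 45.9 with both compounds. Oxamate libraries of Galnt2 lay below those with both compounds and overlapped vehicle. The log2 fold changes of Galnt2 were -0.30 (SE 0.22), 0.43 (SE 0.22) and 0.14 (SE 0.21), and those of Galnt1 were 0.27 (SE 0.51), -0.09 (SE 0.51) and 0.18 (SE 0.52), none called. Those of Galnt1 changed sign with single libraries left out, ranging from -0.10 (without oxamate library 5) to 0.87 (without vehicle library 2), from -0.40 (without library 9) to 0.29 (without oxamate library 5), and from -0.15 (without vehicle library 1) to 0.78 (without vehicle library 2). Across the members, groups did not overlap for 4 with oxamate against vehicle (Galnt4, Galnt6, Galnt10 and Galnt11, all higher), where 21.3% of all genes tested did not overlap. Between both compounds and oxamate this held for 6 members (3 higher and 3 lower, beside 28.8% of all genes), and between both compounds and vehicle for 4 (3 higher and 1 lower, beside 36.5%). For Galnt2, as for Galnt6, Galnt7 and Galnt11, an annotated gene overlaps its exons (on the same strand for Galnt2, on the opposite strand for the others). The same-strand gene Gm20388 shares 3854 exon bases with Galnt2, whose transcript is 4113 bases long, so reads in the shared stretch may have been left out if both genes were counted. Gm20388 was not analysed here, and the low level of Galnt2 is uncertain. The opposite-strand 1810008B01Rik shares 154 bases with Galnt2 and had at most 1.78 normalized counts in a library. The other opposite-strand genes were at 0 counts beside Galnt11, at no more than 2.84 normalized counts in a library beside Galnt6 and at 15.4 to 40.6 beside Galnt7.

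**Figure D3:**
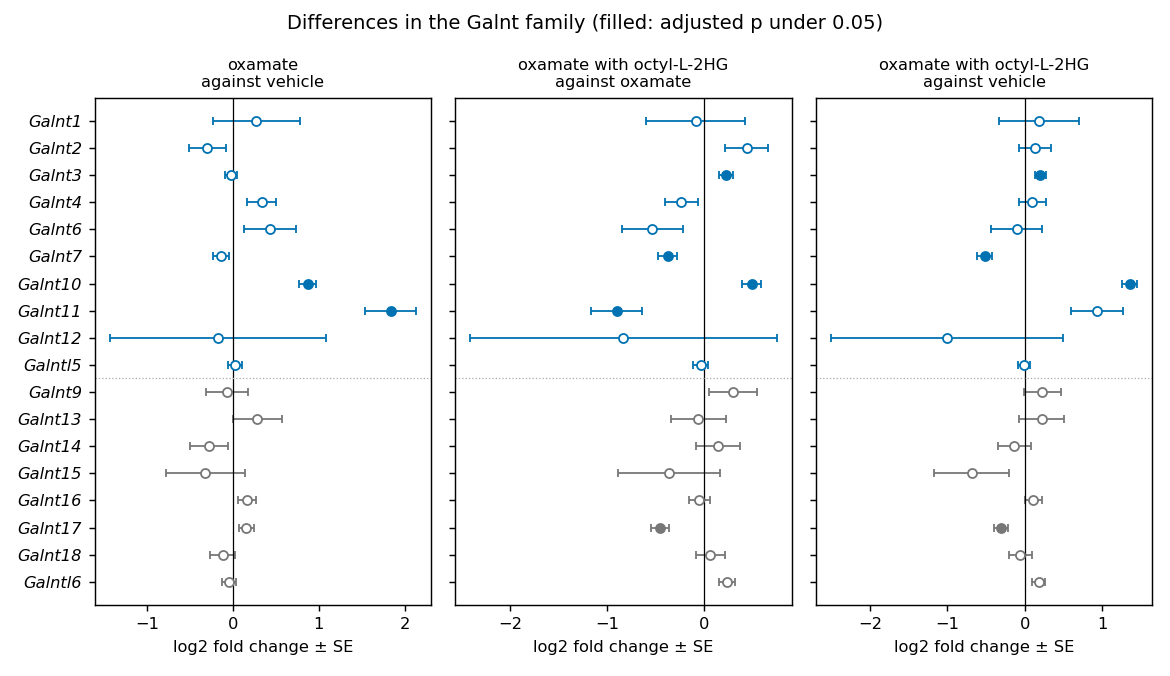
Log2 fold change with its SE for the 10 members (blue) and 8 other family genes (grey) in the 3 comparisons, filled where called. Galnt10 is filled on the right of 0 in all 3 panels, Galnt11 and Galnt7 change sides or status between panels, and the wide bar of Galnt12 rests on 11 counts.

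Among the 9 other family genes, 0 of the 8 tested were called with oxamate against vehicle (0 also at an unadjusted p under 0.05 and with DESeq2). Galnt17 fell with both compounds, from 380 ± 40.0 normalized counts with vehicle and 422 ± 11.6 with oxamate to 312 ± 8.81. Its log2 fold change was -0.46 (SE 0.092, adjusted p = 0.00221) against oxamate and -0.30 (SE 0.092, adjusted p = 0.0237) against vehicle, the second called in 10 of 16 alternatives and lost without vehicle library 3 (-0.21) or library 7 (-0.32), 8 (-0.31) or 9 (-0.29). Galntl6, the family gene closest to Galnt10 in coding sequence (70.0% identical), stood at 2354 ± 248, 2270 ± 224 and 2707 ± 81.7 normalized counts, and its log2 fold change of 0.23 against oxamate missed the threshold (SE 0.082, adjusted p = 0.078). It passed in 3 of 16 alternatives, DESeq2 (0.25) among them, and its log2 fold change of 0.18 against vehicle (adjusted p = 0.143) passed in 4. Galnt9, Galnt13, Galnt14, Galnt16 and Galnt18 had mean normalized counts of 24.9, 18.3, 35.3, 252 and 112 and were called in no comparison.

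The rest of the pathway was read from lists. The genes that extend the first GalNAc into longer O-glycans numbered 13, of which 8 were tested. With oxamate against vehicle and with both compounds against oxamate 0 were called (at an unadjusted p under 0.05, 1 higher and 2 lower, then 1 and 1; with DESeq2, 1 and 0, then 0 and 0). Against vehicle, both compounds together had 1 of the 8 genes called lower, where 10.6% of all genes were. It was C1galt1, the enzyme that adds galactose to form the core 1 structure. C1galt1 went from 458 ± 23.7 normalized counts (vehicle) to 379 ± 10.2 (both compounds), with 393 ± 53.0 in the oxamate libraries, and its log2 fold change was -0.29 (SE 0.095, adjusted p = 0.0338). At an unadjusted p under 0.05, 1 gene was higher and 1 lower in this comparison. The higher one was C1galt1c1, the chaperone of C1galt1, named after its values were seen, with 35.0 ± 5.82 normalized counts in vehicle libraries and 54.4 ± 5.84 in the combined group (log2 fold change 0.60, SE 0.22, adjusted p = 0.0549, not called). The C1galt1 call was lost in 9 of 16 alternatives, among them DESeq2 and the fits without vehicle library 2 (-0.26) or 3 (-0.26) or without library 7 (-0.31), 8 (-0.30) or 9 (-0.28).

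All 9 genes that make or carry UDP-GalNAc were tested. With oxamate against vehicle 0 were called (3 higher and 1 lower at an unadjusted p under 0.05, 0 with DESeq2), and with both compounds against vehicle 0 were called (0 higher and 1 lower unadjusted, 0 with DESeq2). Octyl-L-2HG on top of oxamate had 1 of the 9 genes called lower, where 8.06% of all genes were. It was Slc35a2, the Golgi transporter of UDP-galactose, which was named after its values were seen because its mean was under 100. It measured 112 ± 23.8 normalized counts with oxamate and 78.8 ± 14.9 with both compounds, with a log2 fold change of -0.53 (SE 0.17, adjusted p = 0.0429). The call held in 6 of 16 alternatives and was lost with DESeq2 and without vehicle library 2 (-0.53) or 3 (-0.51), oxamate library 4 (-0.33), or library 7 (-0.63), 8 (-0.39) or 9 (-0.58).

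Of 12 genes that transfer GalNAc in other linkages, all tested, 1 rose with oxamate (2 higher and 1 lower at an unadjusted p under 0.05), where 3.97% of all genes were called higher. This was B4galnt3, which builds the LacdiNAc unit, at 499 ± 28.4 normalized counts with vehicle and 741 ± 60.3 with oxamate (log2 fold change 0.58, SE 0.083, adjusted p = 0.000188). With both compounds it stood at 689 ± 24.0, still higher than vehicle (0.44, adjusted p = 0.00066). In that comparison 1 gene of the list was called higher and 1 lower, where 7.48% and 10.6% of all genes were. The lower one was B4galnt4, at a mean of 28.4 normalized counts. Between both compounds and oxamate 0 genes of this list were called (0 higher and 2 lower unadjusted, 0 with DESeq2).

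Of 8 genes that start other kinds of protein O-glycan, all tested, 1 rose with oxamate, where 3.97% of all genes were called higher (3 higher and 0 lower at an unadjusted p under 0.05). It was Pofut2, which adds fucose to thrombospondin repeats. Pofut2 measured 1748 ± 179, 2704 ± 203 and 3072 ± 84.5 normalized counts in the vehicle, oxamate and combined groups. Its log2 fold change was 0.63 (SE 0.078, adjusted p = 3.43e-05) with oxamate and 0.79 (adjusted p = 5.49e-07) with both compounds, each against vehicle. Pomt1, which starts O-mannose glycans, rose with both compounds against vehicle, from 10216 ± 641 to 13044 ± 124 (0.33, adjusted p = 0.00551). Against vehicle, both compounds had 2 of the 8 genes called higher and 1 lower, where 7.48% and 10.6% of all genes were. The lower one was Xylt1, at a mean of 3.0 normalized counts (9 of 15 alternatives, and not with DESeq2, without vehicle library 2 or 3, or without library 7 or 8). Between both compounds and oxamate 0 genes were called (0 higher and 1 lower unadjusted, 0 with DESeq2).

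The genes whose log2 normalized counts followed Galnt10 most closely over the 9 libraries, among 10714 others with a mean of at least 100, were Khsrp (Pearson r = 0.997), Josd1 (0.995), Ncoa3 (0.995), Tctn1 (0.994) and Mfsd12 (0.993). The 9 points are the libraries of 3 groups and share their depth, and 182 genes had an r over 0.95. Mfsd12 averaged 1327, 2433 and 3114 normalized counts in the vehicle, oxamate and combined groups. Josd1 averaged 1195, 2029 and 2687.

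The libraries held 32339533 to 39888396 counts each. Genes of RS (9 markers, among them Acrv1 and Tnp1) summed to between 76142 and 78763 normalized counts with vehicle, 71510 and 72896 with oxamate, and 69383 and 70804 with both compounds, and 4 of the 9 were called lower with oxamate against vehicle (1.22% of all genes were). With both compounds 4 were called lower against oxamate (8.06% of all genes), and against vehicle 5 were lower (10.6%) and 2 higher (7.48%). The summed RS markers were thus lower in each group in which Galnt10 was higher, though single markers went either way. Spermatocyte markers (6) summed to between 9070 and 11218 with vehicle, 8685 and 9737 with oxamate, and 10412 and 10825 with both compounds, and 1 was called higher with both compounds against oxamate (3.18% of all genes were). Spermatogonial markers (5) summed to 189 to 208 in vehicle libraries, 234 to 248 in oxamate libraries and 226 to 237 in the combined group, so that both treated groups lay above vehicle, with 0 of the 5 called. Gfra1 alone held 123 to 167 of these normalized counts over the 9 libraries. Macrophage markers (4) summed to 129 to 162, 112 to 124 and 117 to 140 in the same order, so that the oxamate libraries lay under vehicle. Endothelial markers (3) summed to 125 to 160, 157 to 212 and 162 to 174, so that the combined group lay above vehicle. Of these, 1 was called higher in each treated group against vehicle (3.97% of all genes with oxamate and 7.48% with both compounds). Myoid markers (4) summed to 86.2 to 92.5, 95.3 to 110 and 80.5 to 95.5, Leydig markers (5) to 28.4 to 38.2, 19.7 to 27.6 and 32.3 to 40.3, and Sertoli markers (6) to 3.79 to 7.33, 4.39 to 7.62 and 2.31 to 3.37. For myoid markers the oxamate libraries lay above vehicle, and for Leydig markers they lay under both other groups. For Sertoli markers the combined group lay under both others. The part of these marker levels in the results was not tested. Oxamate library 4 stood apart from libraries 5 and 6 (chi-square per degree of freedom of 16.7 and 20.7, beside 1.98 between those), and the Galnt10 values without it are given above. Vehicle library 1 differed from libraries 2 and 3 by 10.7 and 10.1, beside 5.86 between those, and libraries 7 to 9 differed from each other by 2.27 to 6.42.

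**Figure D4:**
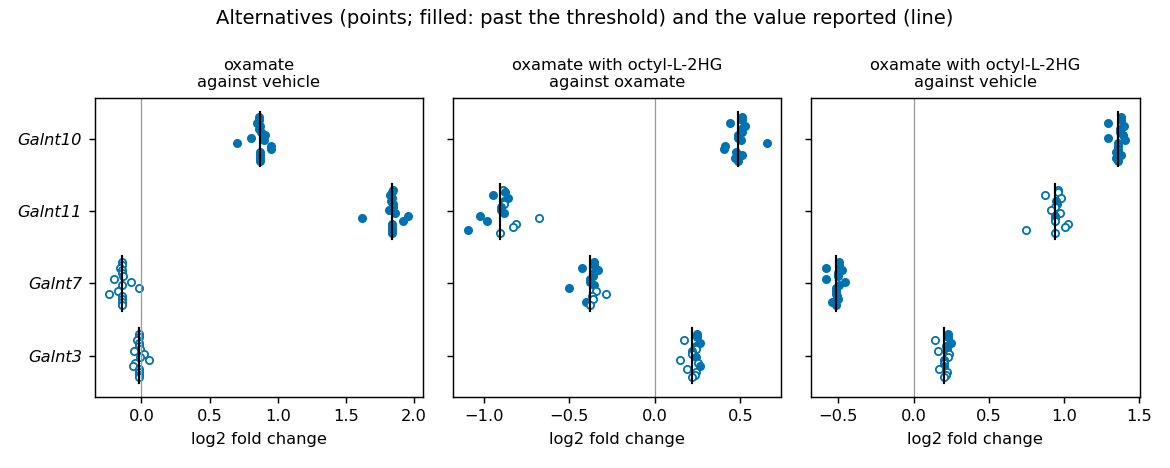
Log2 fold changes of Galnt10, Galnt11, Galnt7 and Galnt3 under the alternatives tried (points, filled where past the threshold of the alternative) around the reported value (line). The points of Galnt10 stay filled and to the right of 0 throughout, between 0.70 and 0.95, 0.41 and 0.65, and 1.29 and 1.40 in the 3 comparisons.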

How the data were processed

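RNA of cultured round spermatids was sequenced in 9 libraries, 3 per group, with groups taken from the sample labels. Per the submitters' processing notes, reads were processed with cutadapt 2.10, TopHat2 2.1.1, HTSeq 2.01 and DESeq2 1.36.0. The authors deposited raw read counts per gene and a normalized signal, which is the count divided by 1 DESeq2 size factor per library. The kit was stranded, the strand setting of the counting is not given in the sources used here, and the labels and methods name different sequencers. Per the study, cells were incubated in triplicate; separate animals are not stated, so p-values measure the spread between these libraries, which may be technical.

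The deposited counts were fitted with edgeR 4.0.16 in R 4.3.3 (TMM, robust quasi-likelihood, all 9 libraries, group as the only term) for the 25128 genes with at least 10 counts in sum, with Benjamini-Hochberg adjustment and a threshold of 0.05. The code was tested on simulated data. Alternatives were DESeq2 1.42.0, 2 other scalings, 2 other filters, a threshold of 0.01, fits restricted to each pair of groups, and fits without each library in turn.

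The members, gene lists and markers were chosen with earlier results of these data known. The genes named are the members, other family genes with a mean of at least 10, list genes past the threshold with a mean of at least 100 (at most 3 a list) and the 5 genes most correlated with Galnt10 on log2(normalized count + 1). C1galt1c1, Slc35a2, B4galnt4 and Xylt1 were named after their values were seen. Transcript lengths are of the longest protein-coding transcript of a gene, and coding lengths of the transcript with the longest coding sequence. These lengths and the exon overlaps came from GENCODE annotation of an earlier mouse build than the GRCm39 the notes name, matched by gene identifier. Promoters came from RefSeq.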

Additional observations from a re-analysis of the deposited data

How the results depend on the processing

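With oxamate against vehicle, the counts of 2 members higher and 0 lower were the same under every alternative. With both compounds against oxamate, 1 rather than 2 members were higher with total counts, with only the groups compared and at an adjusted p under 0.01, and between 1 and 2 with a library left out. In the same comparison 1 rather than 2 were lower with DESeq2 and with only the groups compared, 0 at an adjusted p under 0.01, and between 0 and 2 with a library left out. With both compounds against vehicle, 1 rather than 2 were higher with total counts and at an adjusted p under 0.01, 3 with edgeR's own expression filter and with only the groups compared, and between 1 and 3 with a library left out. The causes were not tested. No alternative turned the direction of a called member. No paired analysis was possible because the libraries are numbered 1 to 9 across the groups and share no numbers. Galnt1, Galnt6, Galnt11 and Galnt12 had 56, 116, 156 and 11 counts over the 9 libraries, which limits the precision of their values.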
